A study of Homo sapiens with 12 samples.

Results

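The genes described here are 58 genes of mitosis, the stage in which a cell condenses its chromosomes, attaches them to a spindle of microtubules and divides. They were chosen by name from lists of mitotic kinases, cyclins, kinesins, kinetochore and centromere proteins, condensin subunits and cytokinesis factors. All 58 were found among the 61510 genes of the deposited tables, and all 58 passed the low-count filter, as did 15653 genes in all. With gambogenic acid (GNA), 58 of the 58 fell in cells with an NRF2 hairpin and 57 of the 58 fell in cells with a control hairpin, where 17% and 16.1% of all tested genes fell. The median level of the 58 genes was taken relative to control-hairpin cells given the solvent without GNA. It was 47.5% in the NRF2 hairpin line with GNA, 120% in that line without GNA, and 53.1% in the control line with GNA.

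RNA sequencing of total RNA was done on A549/DDP, a subline of the lung adenocarcinoma line A549 that resists cisplatin. One derivative carries a short hairpin RNA against NRF2 (shNRF2) and the other a control hairpin (shNC). Cells of each line at 70% confluence were given 4 µM GNA, a caged xanthone from gamboge resin, or DMSO, its solvent, for 24 h. The 12 libraries fall into 4 groups of 3, namely shNRF2 with GNA, shNRF2 with DMSO, shNC with GNA and shNC with DMSO. Cells of all 4 groups were maintained in medium with 1 µg/ml cisplatin (DDP). The labels do not say whether a hairpin line is a pool or 1 clone, so a difference between the lines cannot be told apart from a difference between 2 derived cultures. Whether the replicates are separate cultures is not stated either, so each p-value rests on a spread between libraries that may be technical only. In bulk RNA a smaller share of cells in mitosis and less mRNA per mitotic cell cannot be told apart.

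Mitotic genes are transcribed late in the cell cycle, in G2 and M. In resting and early-cycle cells they are held down by the DREAM complex, and later they are switched on by MYBL2 (B-Myb) and FOXM1, whose complexes bind the same promoters. The usual promoter elements are the CHR (cell cycle genes homology region), bound by DREAM and by its MYBL2-containing relative, and CCAAT boxes, bound by NF-Y. CDK1 with cyclin B starts mitosis, the spindle checkpoint holds it until every kinetochore is attached, and the APC/C with CDC20 ends it by marking cyclin B and securin for degradation. These genes are widely used as markers of dividing cells, and lung adenocarcinoma lines in culture express them.

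Library totals were 12848607 to 15637944 counts in shNRF2 GNA, 13158101 to 15776177 in shNRF2 DMSO, 13599974 to 15896846 in shNC GNA and 15118635 to 17192671 in shNC DMSO. NFE2L2, which encodes NRF2, averaged 45.8 ± 1.99 CPM in shNRF2 GNA, 50.2 ± 2.79 in shNRF2 DMSO, 87.4 ± 3.86 in shNC GNA and 77.9 ± 3.60 in shNC DMSO (SD, n = 3 each), so the targeted gene was lower in both groups labelled shNRF2. CPM here is the count scaled to the TMM-adjusted library total, where TMM is a scaling that assumes most genes do not change. Library shNC DMSO 1 lay farther from the others of its group than any other library. Its chi-square per degree of freedom over the tested genes was 7.58 and 5.96 against the other 2, while every other pair of libraries of a group lay between 2.24 and 5.09. The epithelial markers, led by KRT8, summed to 9460 to 9940 CPM in shNRF2 GNA, 15300 to 15900 in shNRF2 DMSO, 9750 to 10000 in shNC GNA and 15700 to 16600 in shNC DMSO. KRT8 alone averaged 7610, 12400, 7850 and 12800 CPM in these groups, in that order, so the sums mainly report KRT8. Of the 6 listed genes, which include CDH2 (N-cadherin), 5 passed the low-count filter, and KRT19 had no count in shNRF2 GNA. Markers of other cells were near 0: the 7 fibroblast genes summed to at most 9.96 CPM, the 6 leukocyte genes to 4.03 and the 5 endothelial genes to 0.771 in any library. The 6 alveolar type 2 genes, led by LAMP3, summed to at most 11.8 CPM, and LAMP3 was the only one of them to pass the low-count filter.

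GNA lowered the mitotic genes in both lines. In shNRF2, 58 of 58 fell and none rose (edgeR's quasi-likelihood test, adjusted p under 0.05), where 17% of all tested genes fell and 16.7% rose. In shNC, 57 of 58 fell and none rose, where 16.1% of all tested genes fell and 14.6% rose. No gene of the 58 rose at an unadjusted p under 0.05 or by DESeq2 in either line. The median log2 fold change over the 58 genes was -1.31 in shNRF2 and -0.92 in shNC, and over all tested genes it was 0.01 in shNRF2 and 0.02 in shNC. In shNRF2, 54 of the 58 genes fell at least 2-fold, against 2.18% of all tested genes, and in shNC 19 did, against 0.767%. Every GNA library lay below every DMSO library for 58 genes in shNRF2, where 22.1% of all tested genes did so, and for 57 genes in shNC, where 20.2% did. The 58 genes together took 0.285% of all counts in shNRF2 GNA (0.283% to 0.288% over the libraries), against 0.648% in shNRF2 DMSO (0.638% to 0.663%). In shNC they took 0.296% with GNA (0.294% to 0.299%), against 0.507% with DMSO (0.501% to 0.51%). Scaled by library totals in place of TMM, which put the median of all tested genes at 0.12 in shNC, 3543 of all tested genes rose and 1542 fell there, against 2284 and 2526 with TMM, and 55 of the 58 mitotic genes fell. The same scaling gave 3356 higher and 2091 lower genes in shNRF2, against 2617 and 2657, and 58 mitotic genes fell. Without library shNC DMSO 1, 58 genes fell in shNRF2 and 56 in shNC.

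**Figure D1:**
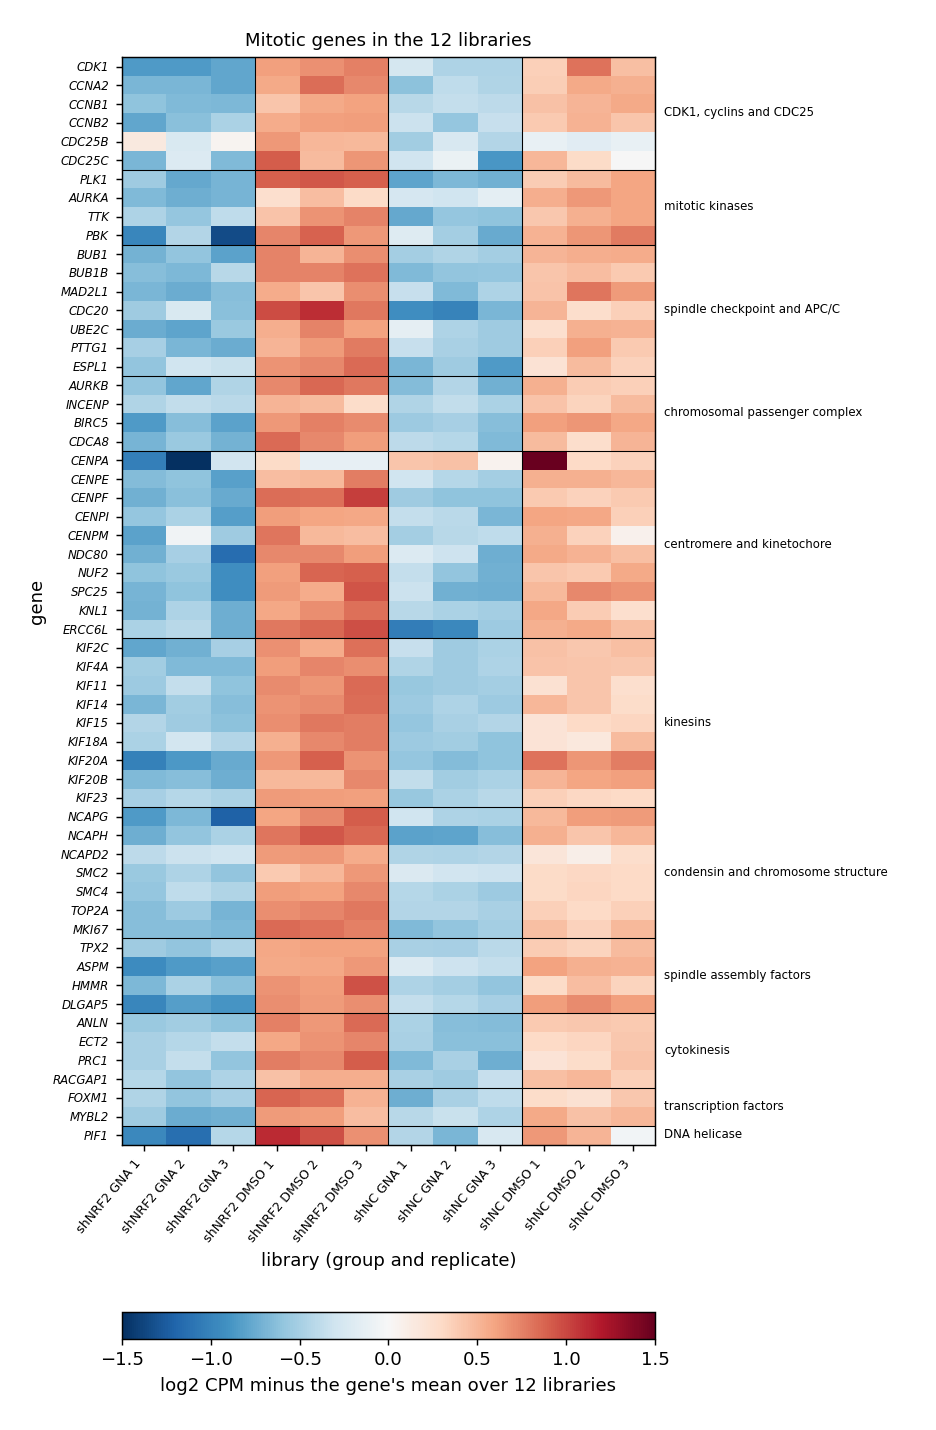
Log2 CPM of each of the 58 mitotic genes (rows, by subgroup) in each of the 12 libraries (columns), minus the gene's mean over the 12 libraries. The 6 GNA libraries are below the mean for nearly every gene, the 3 shNRF2 DMSO libraries are the highest for most genes, and CENPA and CDC25B depart from that pattern.

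Promoters of the 58 genes were read to show the elements named above. Of the 58 genes, 48 had a promoter window in the RefSeq table (GRCh38.p14), running from 250 bases before to 50 bases after the start of transcription, with 60 windows in all because some genes have several, partly overlapping, starts. The motifs searched on both strands were the CHR, as TTTGAA or TTCGAA, and the CCAAT box, as CCAAT; matches of both can share bases. A CHR was present in 38 of the 48 genes (79.2%), against 15.8% of the 11206 tested genes with a window. A CCAAT box was present in 36 of the 48 (75%), against 42.8%. Both were present in 53.3% of the 60 windows, against 4.82% of the 16300 windows of all tested genes. The CHR lay at a median of 28 bases before the start and the CCAAT box at 85 bases before it. Other genes of division, outside the 58, held them too. Of the 60 windows of the members, 68.3% held a CHR and 53.3% held both elements, against 61.5% and 53.8% of 26 windows from 23 other spindle, motor and cytokinesis genes and 38.2% and 29.4% of 34 windows from 28 other kinetochore and centromere genes. Of 34 windows from 26 DNA replication genes, which act in S phase, 5.88% held a CHR and 61.8% a CCAAT box. A match is a description of letters and not of binding. The windows below belong to genes whose values are given in the next paragraphs. These genes encode a kinase, a cyclin, a kinetochore protein, a topoisomerase, the proliferation marker Ki-67 and a kinesin whose window holds neither TTTGAA nor TTCGAA. The capitals mark CHR and CCAAT matches on either strand, so TTCAAA and ATTGG are the same elements read on the other strand. In order, the windows are chr16:23678639-23678938, plus strand for PLK1, chr15:59104896-59105195, plus strand for CCNB2, chr1:214602945-214603244, plus strand for CENPF, chr17:40417847-40418146, minus strand for TOP2A, chr10:128126374-128126673, minus strand for MKI67 and chr5:138178862-138179161, plus strand for KIF20A.
PLK1: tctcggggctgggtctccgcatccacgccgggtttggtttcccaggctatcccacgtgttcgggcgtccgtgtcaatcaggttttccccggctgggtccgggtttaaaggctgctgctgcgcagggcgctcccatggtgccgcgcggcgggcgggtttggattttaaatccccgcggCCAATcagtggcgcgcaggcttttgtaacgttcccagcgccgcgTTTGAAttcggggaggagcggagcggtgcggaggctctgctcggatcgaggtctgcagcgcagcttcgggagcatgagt
CCNB2: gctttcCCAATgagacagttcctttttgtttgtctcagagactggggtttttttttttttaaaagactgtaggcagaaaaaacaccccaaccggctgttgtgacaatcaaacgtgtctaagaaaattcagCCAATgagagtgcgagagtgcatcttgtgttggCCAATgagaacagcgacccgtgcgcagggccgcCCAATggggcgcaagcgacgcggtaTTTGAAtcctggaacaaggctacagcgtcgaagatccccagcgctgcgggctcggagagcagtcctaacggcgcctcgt
CENPF: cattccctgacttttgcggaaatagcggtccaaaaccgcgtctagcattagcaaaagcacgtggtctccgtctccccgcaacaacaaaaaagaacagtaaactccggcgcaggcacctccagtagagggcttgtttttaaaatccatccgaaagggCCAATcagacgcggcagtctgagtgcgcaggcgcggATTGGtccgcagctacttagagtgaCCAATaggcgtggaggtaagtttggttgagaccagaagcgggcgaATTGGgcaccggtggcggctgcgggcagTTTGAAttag
TOP2A: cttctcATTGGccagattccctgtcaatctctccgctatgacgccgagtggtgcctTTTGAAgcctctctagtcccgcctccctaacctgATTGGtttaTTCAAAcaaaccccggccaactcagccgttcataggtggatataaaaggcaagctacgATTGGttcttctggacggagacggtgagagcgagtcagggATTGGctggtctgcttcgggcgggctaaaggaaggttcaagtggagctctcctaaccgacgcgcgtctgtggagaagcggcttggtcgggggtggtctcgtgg
MKI67: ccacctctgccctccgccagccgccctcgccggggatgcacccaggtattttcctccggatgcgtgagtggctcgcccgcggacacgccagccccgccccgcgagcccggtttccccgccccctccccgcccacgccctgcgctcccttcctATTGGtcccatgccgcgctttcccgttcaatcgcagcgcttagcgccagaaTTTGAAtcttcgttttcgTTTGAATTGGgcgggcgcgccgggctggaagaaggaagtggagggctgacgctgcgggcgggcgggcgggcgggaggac
KIF20A: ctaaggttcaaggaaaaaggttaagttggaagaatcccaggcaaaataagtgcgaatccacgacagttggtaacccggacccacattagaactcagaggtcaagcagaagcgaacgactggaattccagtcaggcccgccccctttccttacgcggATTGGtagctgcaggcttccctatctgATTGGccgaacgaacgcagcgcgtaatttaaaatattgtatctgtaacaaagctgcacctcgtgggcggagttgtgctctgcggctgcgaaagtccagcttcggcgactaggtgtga
PLK1 has 1 CHR and 1 CCAAT box, CCNB2 and CENPF have 1 CHR and 4 CCAAT boxes each, TOP2A has 2 and 4, and MKI67 has 2 and 2. KIF20A has 2 CCAAT boxes and 0 matches to TTTGAA or TTCGAA in this window, and other spellings of the CHR were not searched. Motif content was not set against the size of the response.

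The first subgroup holds CDK1, the cyclins that activate it and the CDC25 phosphatases that remove its inhibitory phosphates. All 6 genes fell in each line, with a median log2 fold change of -1.20 in shNRF2 and -0.87 in shNC. CDK1, the kinase that drives entry into mitosis, had 34.3, 34.3 and 36.0 CPM in shNRF2 GNA, against 94.2, 99.4 and 104 CPM in shNRF2 DMSO. CDK1 in the control line had 51.3, 44.7 and 44.7 CPM in shNC GNA, against 79.3, 109 and 84.2 CPM in shNC DMSO. Its log2 fold change with GNA was -1.51 ± 0.089 in shNRF2 and -0.96 ± 0.086 in shNC (edgeR adjusted p = 1.94e-13 and 1.95e-09), the largest of the subgroup in shNRF2. CCNB1, the main mitotic cyclin, had 51.1, 49.2 and 48.9 CPM in shNRF2 GNA, against 104, 116 and 118 CPM in shNRF2 DMSO. CCNB1 in the control line had 58.4, 60.8 and 59.2 CPM in shNC GNA, against 105, 110.5 and 115 CPM in shNC DMSO. No GNA library of either line overlapped its DMSO libraries, and the change was -1.18 ± 0.061 in shNRF2 and -0.89 ± 0.06 in shNC. CCNB2, another B-type cyclin whose promoter is shown above, had 15.8, 17.7 and 19.6 CPM in shNRF2 GNA, against 40.1, 41.8 and 42.1 CPM in shNRF2 DMSO. CCNB2 in the control line had 21.9, 18.2 and 21.5 CPM in shNC GNA, against 35.9, 39.2 and 36.4 CPM in shNC DMSO. Its GNA libraries all lay under its DMSO libraries, with a change of -1.22 ± 0.088 in shNRF2 and -0.86 ± 0.086 in shNC. CCNA2, cyclin A2, changed by -1.43 ± 0.11 in shNRF2 and -0.96 ± 0.11 in shNC, nearly as much as CDK1. CDC25B stood apart as the least lowered of all 58 genes in both lines. CDC25B, the phosphatase that starts CDK1 activation at the centrosome, had 218, 169 and 204 CPM in shNRF2 GNA, against 311, 278 and 277 CPM in shNRF2 DMSO. CDC25B in the control line had 138, 167 and 145 CPM in shNC GNA, against 184, 176 and 184 CPM in shNC DMSO. The GNA libraries lay below the DMSO libraries within each line, but 2 of the 3 shNRF2 GNA libraries lay above every shNC DMSO library, and their mean was 109% of that group's on the scale of the fit. The change was -0.56 ± 0.073 in shNRF2 and -0.27 ± 0.074 in shNC (edgeR adjusted p = 8.23e-07 and 0.00679), and the shNC call was lost with scaling by library totals and with limma on FPKM. CDC25C, a related phosphatase with low counts, changed by -1.19 ± 0.24 in shNRF2 and -0.66 ± 0.24 in shNC. Its shNC call (edgeR adjusted p = 0.0348) was lost under 9 of 22 alternatives, namely library totals, no low-count filter, limma on FPKM at either pseudocount, a fit to only the groups compared, and fits without shNC DMSO 1 or 2 or without shNC GNA 1 or 3 (adjusted p over these fits = 0.051 to 0.19).

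The 4 mitotic kinases outside that group fell by a median of 1.33 in shNRF2 and 1.15 in shNC on the log2 scale. PLK1, Polo-like kinase 1, which acts from mitotic entry to cytokinesis, had 21.0, 17.9 and 18.9 CPM in shNRF2 GNA, against 57.0, 58.2 and 56.6 CPM in shNRF2 DMSO. PLK1 in the control line had 17.6, 19.2 and 18.5 CPM in shNC GNA, against 39.8, 42.6 and 45.9 CPM in shNC DMSO. Its 3 shNRF2 GNA libraries and its 3 shNC GNA libraries overlapped, while shNRF2 DMSO lay above shNC DMSO. PLK1 changed by -1.57 ± 0.078 in shNRF2 and -1.21 ± 0.079 in shNC (edgeR adjusted p = 7.67e-15 and 4.22e-12), the most of the 4 in shNC. AURKA, Aurora A, the kinase of centrosomes and spindle poles, had 28.4, 27.1 and 27.7 CPM in shNRF2 GNA, against 53.3, 61.6 and 54.9 CPM in shNRF2 DMSO. AURKA in the control line had 37.7, 36.4 and 40.6 CPM in shNC GNA, against 65.5, 70.2 and 67.5 CPM in shNC DMSO. AURKA changed least of the 4, by -1.03 ± 0.072 in shNRF2 and -0.82 ± 0.069 in shNC, and the shNRF2 libraries lay below the shNC libraries under either treatment. PBK, a kinase of dividing cells, had the largest change in shNRF2, with -1.63 ± 0.18 in shNRF2 and -1.14 ± 0.18 in shNC. TTK, which encodes the checkpoint kinase MPS1, changed by -1.09 ± 0.14 in shNRF2 and -1.16 ± 0.14 in shNC and was 1 of only 2 genes of the 58 whose point estimate was not more negative in shNRF2.

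All 7 genes of the spindle checkpoint and of the APC/C pathway fell in each line, with medians of -1.32 in shNRF2 and -1.03 in shNC. CDC20, the APC/C activator that the checkpoint inhibits, had 5.81, 7.16 and 5.42 CPM in shNRF2 GNA, against 16.5, 18.0 and 14.5 CPM in shNRF2 DMSO. CDC20 in the control line had 4.39, 4.20 and 5.22 CPM in shNC GNA, against 11.9, 10.1 and 10.8 CPM in shNC DMSO. Its GNA libraries were all below its DMSO libraries, and its change of -1.41 ± 0.14 in shNRF2 and -1.24 ± 0.15 in shNC was the largest of the 7 in both lines. BUB1B, which encodes the checkpoint protein BUBR1, averaged 43.0 ± 4.18 CPM in shNRF2 GNA and 109 ± 3.26 CPM in shNRF2 DMSO, and 41.8 ± 1.34 CPM in shNC GNA and 85.7 ± 2.03 CPM in shNC DMSO. Its change was -1.34 ± 0.065 in shNRF2 and -1.03 ± 0.065 in shNC. UBE2C, the ubiquitin-conjugating enzyme that works with the APC/C, averaged 7.95 ± 0.701 CPM in shNRF2 GNA and 19.9 ± 1.38 CPM in shNRF2 DMSO, and 9.98 ± 1.53 CPM in shNC GNA and 17.4 ± 1.85 CPM in shNC DMSO. UBE2C changed by -1.32 ± 0.12 in shNRF2 and -0.81 ± 0.12 in shNC, the least of the 7 in shNC. ESPL1, which encodes separase, the protease that cuts cohesin, changed by -1.14 ± 0.14 in shNRF2 and -1.04 ± 0.15 in shNC, the least of the 7 in shNRF2. The other 3, the checkpoint genes BUB1 and MAD2L1 and the securin gene PTTG1, changed by -1.36 to -1.25 in shNRF2 and by -1.12 to -0.92 in shNC.

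The chromosomal passenger complex corrects faulty kinetochore attachments and later guides cytokinesis; its kinase is Aurora B and its scaffold is INCENP. All 4 of its genes fell in each line, and INCENP had the smallest fall in each. AURKB, the kinase subunit, had 8.22, 7.22 and 9.05 CPM in shNRF2 GNA, against 20.4, 22.4 and 21.4 CPM in shNRF2 DMSO. AURKB in the control line had 7.92, 9.13 and 7.49 CPM in shNC GNA, against 17.9, 16.1 and 15.8 CPM in shNC DMSO. AURKB changed by -1.39 ± 0.11 in shNRF2 and -1.02 ± 0.12 in shNC, and its GNA and DMSO libraries did not overlap in either line. BIRC5, which encodes survivin, the subunit that brings the complex to centromeres, had 21.4, 24.8 and 22.0 CPM in shNRF2 GNA, against 60.7, 64.9 and 63.1 CPM in shNRF2 DMSO. BIRC5 in the control line had 26.5, 27.4 and 24.7 CPM in shNC GNA, against 58.8, 61.3 and 57.7 CPM in shNC DMSO. BIRC5 had the largest change of the 4, -1.46 ± 0.073 in shNRF2 and -1.18 ± 0.071 in shNC. CDCA8, which encodes borealin, changed by -1.39 ± 0.13 in shNRF2 and -0.91 ± 0.13 in shNC. INCENP, the scaffold, had 164, 173 and 169 CPM in shNRF2 GNA, against 319, 311 and 271 CPM in shNRF2 DMSO. INCENP in the control line had 164, 173 and 161 CPM in shNC GNA, against 302, 282 and 310.5 CPM in shNC DMSO. The DMSO libraries of both lines lay together and so did the GNA libraries. INCENP changed by -0.83 ± 0.057 in shNRF2 and -0.85 ± 0.057 in shNC, and the difference between those responses was 0.01 ± 0.08 with a 95% interval of -0.17 to 0.20 (edgeR adjusted p = 0.955).

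Of 10 centromere and kinetochore genes, 10 fell in shNRF2 and 9 fell in shNC, with medians of -1.37 in shNRF2 and -0.94 in shNC. CENPF, a large kinetochore protein of G2 and M whose promoter is shown above, had 195, 209 and 191 CPM in shNRF2 GNA, against 573, 571 and 660.3 CPM in shNRF2 DMSO. CENPF in the control line had 223, 213 and 212 CPM in shNC GNA, against 423, 409 and 424 CPM in shNC DMSO. The shNRF2 DMSO libraries were the highest of the 4 groups, and the shNRF2 GNA libraries lay just below the shNC GNA libraries. CENPF changed by -1.60 ± 0.055 in shNRF2 and -0.96 ± 0.054 in shNC (edgeR adjusted p = 2.41e-18 and 2.63e-13), the most of the 10 in shNRF2. ERCC6L, which encodes the helicase PICH on the threads that join separating chromosomes, had the largest change of the 10 in shNC, with -1.41 ± 0.15 in shNRF2 and -1.34 ± 0.15 in shNC. KNL1, the kinetochore scaffold that recruits the BUB proteins, averaged 14.5 ± 1.55 CPM in shNRF2 GNA and 36.4 ± 3.12 CPM in shNRF2 DMSO, and 16.2 ± 0.506 CPM in shNC GNA and 29.7 ± 3.45 CPM in shNC DMSO. KNL1 changed by -1.33 ± 0.099 in shNRF2 and -0.87 ± 0.098 in shNC. The genes NDC80, NUF2 and SPC25 encode subunits of the NDC80 complex, which grips microtubules. These genes changed by -1.48 to -1.46 in shNRF2 and -1.22 to -0.92 in shNC. CENPE, a kinetochore motor, and the centromere genes CENPI and CENPM changed by -1.27 to -1.01 in shNRF2 and by -0.99 to -0.76 in shNC.

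CENPA was the exception. CENPA, the histone H3 variant that marks the centromere, had 1.81, 1.08 and 3.02 CPM in shNRF2 GNA, against 4.50, 3.37 and 3.37 CPM in shNRF2 DMSO. CENPA in the control line had 4.89, 5.00 and 3.81 CPM in shNC GNA, against 10.3, 4.54 and 4.69 CPM in shNC DMSO. Library shNC DMSO 1 was higher than every other library, and the other 2 shNC DMSO libraries lay inside the range of the shNC GNA libraries. CENPA was the only gene of the 58 not called in shNC, at -0.50 ± 0.27 (edgeR adjusted p = 0.168), and it changed by -0.93 ± 0.33 in shNRF2 (edgeR adjusted p = 0.0289). Without shNC DMSO 1 the value in shNC was -0.02 ± 0.25 (edgeR adjusted p = 0.97). The shNRF2 call was lost with DESeq2 and with limma on FPKM at either pseudocount, and also without shNRF2 DMSO 1 and without shNRF2 GNA 1 or 2 (adjusted p over these fits = 0.082 to 0.18). CENPA had 17 to 149 counts per library and overlaps SLC35F6 on the same strand in GENCODE 29, so some of its reads may not be told apart from those of that gene.

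The 9 kinesins, motors that slide, cross-link or shorten spindle microtubules, all fell in each line, with medians of -1.29 in shNRF2 and -0.88 in shNC. KIF20A, which encodes MKLP2, the motor that carries the passenger complex to the midzone, had 11.5, 12.8 and 13.8 CPM in shNRF2 GNA, against 36.4, 43.2 and 37.0 CPM in shNRF2 DMSO. KIF20A in the control line had 15.5, 14.8 and 15.3 CPM in shNC GNA, against 41.0, 36.8 and 39.5 CPM in shNC DMSO. The shNRF2 GNA libraries lay just below the shNC GNA libraries, and the DMSO libraries of both lines overlapped. KIF20A changed by -1.61 ± 0.092 in shNRF2 and -1.36 ± 0.089 in shNC (edgeR adjusted p = 1.14e-13 and 4.14e-12), the steepest of the 9 in each line. KIF11, which encodes Eg5, the motor that pushes spindle poles apart, averaged 59.1 ± 5.39 CPM in shNRF2 GNA and 139.6 ± 9.56 CPM in shNRF2 DMSO, and 57.6 ± 1.06 CPM in shNC GNA and 103 ± 7.56 CPM in shNC DMSO. KIF11 changed by -1.24 ± 0.068 in shNRF2 and -0.84 ± 0.069 in shNC. KIF15, a motor that can partly stand in for Eg5, averaged 19.0 ± 1.18 CPM in shNRF2 GNA and 46.2 ± 1.55 CPM in shNRF2 DMSO, and 19.4 ± 0.936 CPM in shNC GNA and 33.2 ± 1.47 CPM in shNC DMSO. KIF15 changed by -1.29 ± 0.078 in shNRF2 and -0.77 ± 0.079 in shNC, the least of the 9 in shNC. KIF4A, a chromosome-bound motor of the midzone, averaged 38.2 ± 2.13 CPM in shNRF2 GNA and 94.2 ± 3.72 CPM in shNRF2 DMSO, and 41.8 ± 1.23 CPM in shNC GNA and 77.9 ± 0.669 CPM in shNC DMSO. KIF4A changed by -1.30 ± 0.062 in shNRF2 and -0.90 ± 0.061 in shNC. KIF18A, which limits chromosome movement at the metaphase plate, had the smallest change in shNRF2, with -1.07 ± 0.097 in shNRF2 and -0.84 ± 0.1 in shNC. KIF2C (MCAK, a microtubule depolymerase), KIF14, KIF20B and KIF23 (MKLP1, a part of centralspindlin) changed by -1.35 to -1.10 in shNRF2 and by -1.03 to -0.81 in shNC.

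Chromosome structure genes, the subunits of condensin I, topoisomerase II alpha and Ki-67, all fell in each line, 7 of 7, with medians of -1.36 in shNRF2 and -0.79 in shNC. TOP2A, the enzyme that untangles sister DNA, had 226, 241 and 216 CPM in shNRF2 GNA, against 569, 581 and 608 CPM in shNRF2 DMSO. TOP2A in the control line had 259, 258 and 249 CPM in shNC GNA, against 449, 431 and 448 CPM in shNC DMSO. The 4 groups did not overlap one another: shNRF2 DMSO was highest, then shNC DMSO, shNC GNA and shNRF2 GNA. TOP2A changed by -1.36 ± 0.048 in shNRF2 and -0.79 ± 0.048 in shNC (edgeR adjusted p = 4.45e-18 and 8.47e-13). MKI67, the Ki-67 protein that coats mitotic chromosomes and is scored by pathologists as a proliferation marker, had 338, 338 and 329 CPM in shNRF2 GNA, against 950.0, 927 and 889 CPM in shNRF2 DMSO. MKI67 in the control line had 331, 348 and 370.4 CPM in shNC GNA, against 719.6, 671 and 735 CPM in shNC DMSO. The GNA libraries of both lines overlapped, and shNRF2 DMSO lay above shNC DMSO. MKI67 changed by -1.46 ± 0.049 in shNRF2 and -1.02 ± 0.049 in shNC (edgeR adjusted p = 1.80e-18 and 1.03e-14). NCAPG, a HEAT-repeat subunit of condensin I, had 12.6, 14.2 and 9.73 CPM in shNRF2 GNA, against 34.0, 37.3 and 42.5 CPM in shNRF2 DMSO. NCAPG in the control line had 18.4, 16.3 and 16.2 CPM in shNC GNA, against 31.7, 35.0 and 35.2 CPM in shNC DMSO. NCAPG changed by -1.64 ± 0.11 in shNRF2 and -1.0 ± 0.11 in shNC, the most of the 7 in shNRF2. SMC2, a core subunit that condensin I shares with condensin II, had 89.7, 95.6 and 87.5 CPM in shNRF2 GNA, against 173, 187 and 208 CPM in shNRF2 DMSO. SMC2 in the control line had 114, 108 and 106 CPM in shNC GNA, against 161, 164 and 163 CPM in shNC DMSO. SMC2 changed by -1.06 ± 0.06 in shNRF2 and -0.57 ± 0.059 in shNC, the least of the 7 in shNC. Within condensin I the non-SMC subunit NCAPH changed by -1.45 ± 0.078 in shNRF2 and -1.22 ± 0.079 in shNC, NCAPD2 by -0.95 ± 0.056 in shNRF2 and -0.63 ± 0.057 in shNC and the other core subunit, SMC4, by -1.12 ± 0.052 in shNRF2 and -0.79 ± 0.052 in shNC. NCAPG2 of condensin II, from the wider lists and not among the 58, changed by -1.24 ± 0.063 in shNRF2 and -0.81 ± 0.065 in shNC. NCAPD3, also of condensin II, changed by -0.93 ± 0.062 in shNRF2 and -0.57 ± 0.063 in shNC. Not every condensin II gene had the larger fall in shNRF2. For NCAPH2 the response in shNRF2 minus that in shNC was 0.38, which was not called, against -0.43 for NCAPG2. These were the highest and lowest values among the 16 other condensin and cohesin genes.

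Spindle assembly factors fell in each line, 4 of 4, with medians of -1.40 in shNRF2 and -0.88 in shNC. ASPM, a spindle-pole protein, had 52.6, 56.2 and 57.6 CPM in shNRF2 GNA, against 150.2, 151 and 159 CPM in shNRF2 DMSO. ASPM in the control line had 87.5, 81.7 and 79.0 CPM in shNC GNA, against 153, 146 and 145 CPM in shNC DMSO. The DMSO libraries of both lines overlapped, and the shNRF2 GNA libraries were all below the shNC GNA libraries. ASPM changed by -1.46 ± 0.057 in shNRF2 and -0.84 ± 0.055 in shNC (edgeR adjusted p = 4.39e-17 and 4.51e-12), the least of the 4 in shNC. DLGAP5, which encodes HURP, a stabiliser of the fibres that attach to kinetochores, had 18.6, 20.7 and 19.9 CPM in shNRF2 GNA, against 59.3, 57.3 and 59.6 CPM in shNRF2 DMSO. DLGAP5 in the control line had 28.7, 27.2 and 25.9 CPM in shNC GNA, against 56.5, 60.0 and 56.0 CPM in shNC DMSO. DLGAP5 showed the same order of groups as ASPM and changed by -1.57 ± 0.072 in shNRF2 and -1.08 ± 0.069 in shNC, the most of the 4 in each line. TPX2, the activator of Aurora A at the spindle, averaged 93.9 ± 4.56 CPM in shNRF2 GNA and 204 ± 1.30 CPM in shNRF2 DMSO, and 98.0 ± 3.46 CPM in shNC GNA and 178 ± 8.65 CPM in shNC DMSO. TPX2 changed by -1.12 ± 0.053 in shNRF2 and -0.86 ± 0.053 in shNC. HMMR, a spindle and centrosome protein, changed by -1.34 ± 0.077 in shNRF2 and -0.89 ± 0.077 in shNC.

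All 4 cytokinesis genes fell in each line, with medians of -1.18 in shNRF2 and -0.92 in shNC. ANLN, which encodes anillin, the scaffold of the contractile ring, averaged 102 ± 2.86 CPM in shNRF2 GNA and 255 ± 17.2 CPM in shNRF2 DMSO, and 100.4 ± 7.14 CPM in shNC GNA and 199 ± 0.857 CPM in shNC DMSO. ANLN had the largest change of the 4, -1.32 ± 0.057 in shNRF2 and -0.99 ± 0.057 in shNC. RACGAP1, a subunit of centralspindlin, averaged 19.6 ± 1.22 CPM in shNRF2 GNA and 39.4 ± 1.61 CPM in shNRF2 DMSO, and 20.2 ± 1.40 CPM in shNC GNA and 37.3 ± 1.75 CPM in shNC DMSO. RACGAP1 had the smallest, -1.01 ± 0.081 in shNRF2 and -0.88 ± 0.08 in shNC. PRC1, the protein that bundles midzone microtubules, averaged 15.3 ± 1.26 CPM in shNRF2 GNA and 36.9 ± 2.62 CPM in shNRF2 DMSO, and 13.8 ± 1.27 CPM in shNC GNA and 26.2 ± 2.17 CPM in shNC DMSO. PRC1 changed by -1.27 ± 0.095 in shNRF2 and -0.93 ± 0.097 in shNC, and ECT2, the activator of RhoA at the cleavage furrow, by -1.09 ± 0.057 in shNRF2 and -0.92 ± 0.057 in shNC.

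The transcription factors that switch on the late cell cycle genes fell as well. FOXM1, the forkhead factor of G2 and M genes, had 13.2, 12.0 and 12.8 CPM in shNRF2 GNA, against 33.1, 32.1 and 25.8 CPM in shNRF2 DMSO. FOXM1 in the control line had 10.9, 12.9 and 13.9 CPM in shNC GNA, against 21.8, 21.1 and 24.0 CPM in shNC DMSO. Its shNRF2 GNA and shNC GNA libraries overlapped. MYBL2, the Myb factor of the same complex, had 22.0, 19.1 and 19.3 CPM in shNRF2 GNA, against 49.6, 49.2 and 44.1 CPM in shNRF2 DMSO. MYBL2 in the control line had 23.9, 25.4 and 23.2 CPM in shNC GNA, against 47.2, 43.5 and 44.9 CPM in shNC DMSO. FOXM1 changed by -1.27 ± 0.11 in shNRF2 and -0.82 ± 0.11 in shNC and MYBL2 by -1.25 ± 0.08 in shNRF2 and -0.90 ± 0.078 in shNC, and in both genes the GNA libraries lay below the DMSO libraries of the same line. PIF1, a DNA helicase at replication forks and telomeres, was placed in a subgroup of its own. PIF1, with low counts, had 2.49, 2.22 and 3.63 CPM in shNRF2 GNA, against 10.6, 9.49 and 7.82 CPM in shNRF2 DMSO. PIF1 in the control line had 3.60, 3.02 and 4.11 CPM in shNC GNA, against 7.65, 6.93 and 4.75 CPM in shNC DMSO. It changed by -1.74 ± 0.21 in shNRF2 and -0.85 ± 0.21 in shNC (edgeR adjusted p = 1.93e-07 and 0.00239), which was the largest change of the 58 genes in shNRF2, with a wide SE.

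**Figure D2:**
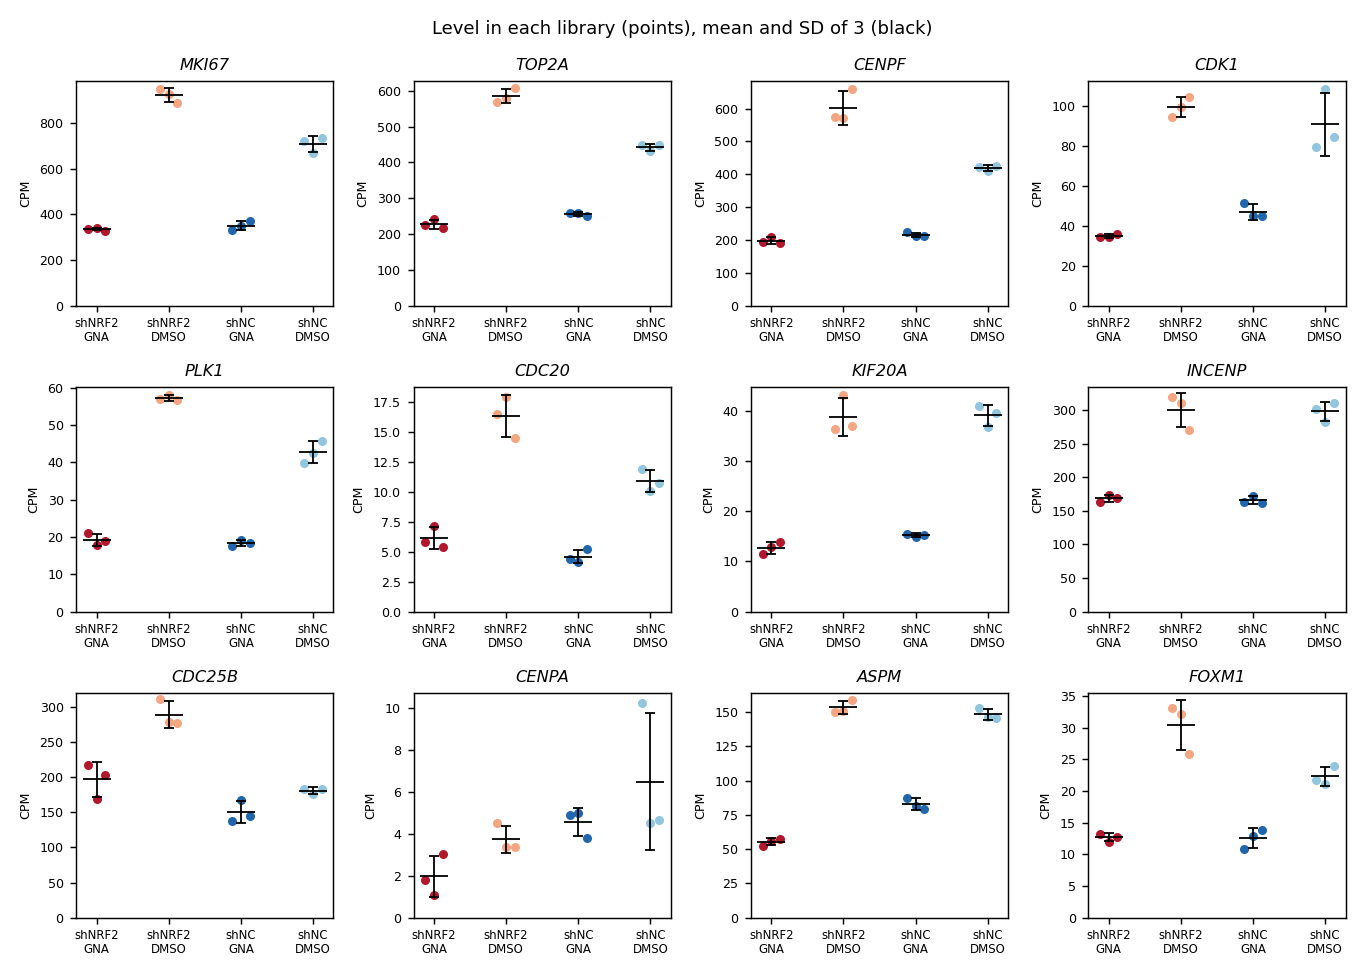
Level of 12 mitotic genes in each library, in CPM on the vertical axis from 0, with the 4 groups on the horizontal axis; points are single libraries and black marks the mean and SD of 3. The GNA points lie below the DMSO points of the same line in every panel except CENPA in shNC, and CDC25B is the gene with the smallest fall.

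Per gene length, in FPKM, which allows levels of different genes to be set side by side, the 58 genes spanned a wide range. In shNC DMSO the highest mean level was TOP2A at 66.1 FPKM, followed by INCENP at 63.7, MKI67 at 52.5 and TPX2 at 47.1. The lowest mean levels in that group were CDC25C at 1.01 FPKM, ESPL1 at 1.03 and PIF1 at 1.32. The transcription factors were at 15.5 FPKM for MYBL2 and 4.31 FPKM for FOXM1. The size of the response had little relation to level: over the 58 genes, the log2 fold change with GNA and the log2 FPKM in DMSO had a Pearson correlation of 0.17 in shNRF2 and 0.19 in shNC, where genes share libraries and depth. Counts of low genes are less precise, so the SE of the GNA response in shNRF2 was 0.33 for CENPA and 0.048 for TOP2A.

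Every subgroup had a median GNA response below 0 in both lines. In shNRF2 they ran from -1.18 for cytokinesis to -1.40 for spindle assembly factors, PIF1 aside, and in shNC from -0.79 for chromosome structure to -1.15 for the mitotic kinases. The order was not the same in the 2 lines: chromosome structure genes had the smallest median in shNC and a median of -1.36 in shNRF2. These medians carry no test between subgroups.

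**Figure D3:**
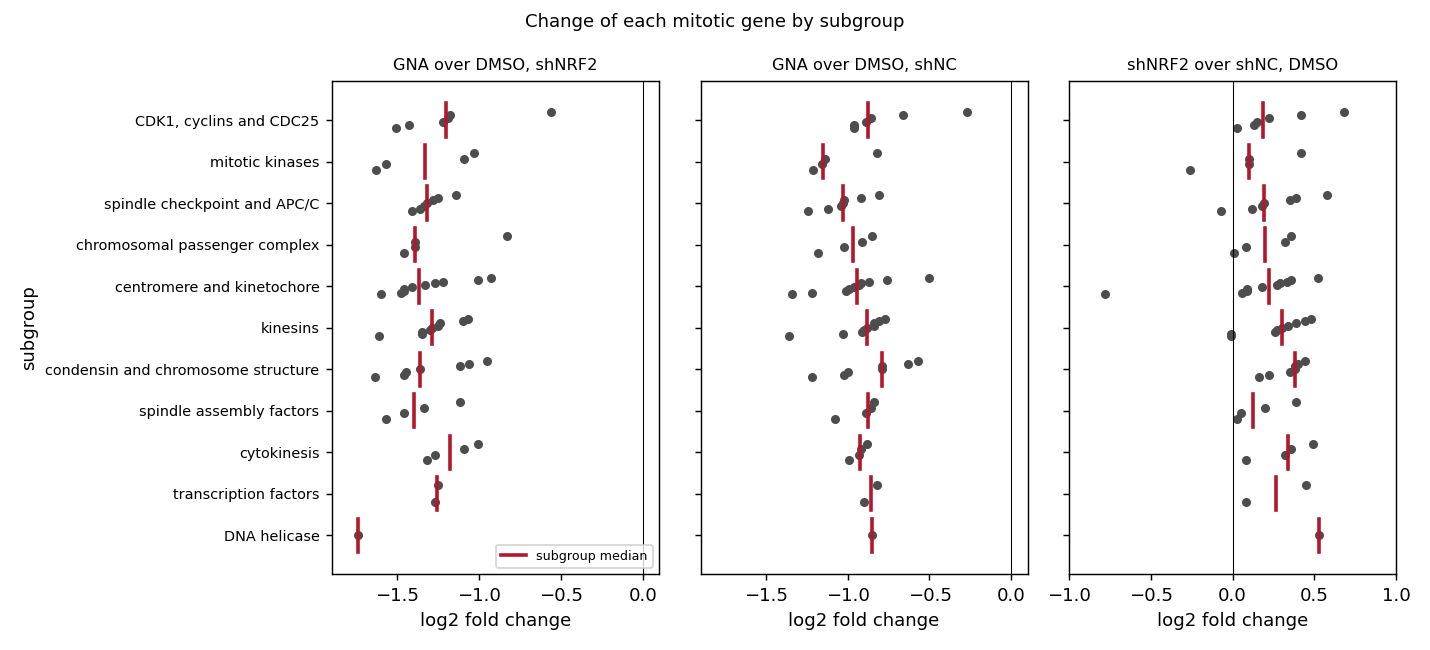
Log2 fold change of each gene (points) by subgroup, with the subgroup median as a red bar, for GNA over DMSO in shNRF2 (left) and shNC (middle) and for shNRF2 over shNC in DMSO (right). All points lie below 0 in the left and middle panels, and most lie above 0 in the right panel, where CENPA and AURKA lie farthest below 0.

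Without GNA, the mitotic genes were on balance higher in the shNRF2 line. In DMSO, 31 of the 58 genes were higher in shNRF2 than in shNC and 2 were lower (edgeR adjusted p under 0.05), where 16.8% of all tested genes were higher and 18.3% were lower. The median log2 fold change was 0.27, against 0.01 over all tested genes. Libraries did not overlap for 34 genes in the higher direction, where 21.3% of all tested genes did so, and for 2 in the lower direction, where 21.9% did. With library totals 3226 of all tested genes were higher and 2266 lower, against 2636 and 2872 with TMM, and 32 of the 58 were higher. Related lists outside the 58 leaned the same way. Of 30 DNA replication genes, 13 were higher and 1 lower. Of 23 other spindle, motor and cytokinesis genes, 10 were higher and 2 lower. Of 31 other kinetochore and centromere genes, 6 were higher and 4 lower. The 22 other mitotic entry genes (4 higher, 9 lower) and the 17 APC/C genes (1 higher, 5 lower) leaned the other way. Among the 58, the largest increases were in CDC25B, at 0.68 ± 0.073 (edgeR adjusted p = 4.52e-08), CDC20 at 0.58 ± 0.13, PIF1 at 0.53 ± 0.19, CENPF at 0.52 ± 0.053 and PRC1 at 0.49 ± 0.09. By subgroup, 6 of 7 chromosome structure genes, 7 of 9 kinesins and 3 of 4 cytokinesis genes were higher, against 1 of 6 in the CDK1, cyclin and CDC25 subgroup, where CDC25B was that gene. In that last subgroup all 6 estimates were positive and 2 passed at an unadjusted p under 0.05, and the subgroups were not tested against each other, so they are not shown to differ. CDK1 at 0.13 ± 0.082 and CCNB1 at 0.03 ± 0.058 were not called. The 2 lower genes were CENPA, at -0.78 ± 0.28 (edgeR adjusted p = 0.0321), and AURKA, at -0.26 ± 0.067 (edgeR adjusted p = 0.00336). The CENPA call was lost without shNC DMSO 1, where its value was -0.30 ± 0.26 (edgeR adjusted p = 0.41), and without shNRF2 DMSO 2 or 3, and also with DESeq2 and with limma on FPKM at either pseudocount. That of AURKA was lost with limma on log2(FPKM + 0.1).

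Calls for 8 more genes in this comparison were lost under some alternatives. The calls for ESPL1 and ERCC6L were lost without shNC DMSO 1 or 3 and shNRF2 DMSO 3, and that of ERCC6L also without shNC DMSO 2 and shNRF2 DMSO 2 (edgeR adjusted p = 0.054 to 0.12 over both genes). The call for CDCA8 was lost without shNC DMSO 1 or 2 and shNRF2 DMSO 1 or 2 (edgeR adjusted p = 0.059 to 0.18). The call for PIF1 was lost without shNC DMSO 3 and shNRF2 DMSO 1 or 2 (edgeR adjusted p = 0.07 to 0.18). The calls for NUF2 and KIF2C were lost without shNC DMSO 2 and shNRF2 DMSO 3, and that of NUF2 also without shNRF2 DMSO 2 (edgeR adjusted p = 0.058 to 0.11). KNL1 lost its call without shNC DMSO 3 or shNRF2 DMSO 3 (edgeR adjusted p = 0.09 to 0.1), and SMC2 without shNRF2 DMSO 3 (edgeR adjusted p = 0.052). With all libraries, CDCA8 also lost its call with DESeq2, with no low-count filter and with the replicate block, ESPL1 and ERCC6L with no low-count filter, and PIF1 with limma on log2(FPKM + 0.1).

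With GNA the called genes leaned the other way, but less strongly, and most of the 58 genes were not called in either direction. Among the 58 genes 1 was higher in shNRF2 GNA than in shNC GNA and 12 were lower (edgeR adjusted p under 0.05), where 12.8% of all tested genes were higher and 13.3% lower. The median log2 fold change was -0.14, against 0.01 over all tested genes. Libraries did not overlap for 17 genes in the lower direction and 5 in the higher, where 19.7% and 21.2% of all tested genes did so. The higher gene was CDC25B, at 0.39 ± 0.074 (edgeR adjusted p = 0.00023). The 5 largest decreases were in CENPA, at -1.20 ± 0.31, ASPM at -0.57 ± 0.058, NCAPG at -0.48 ± 0.12, AURKA at -0.46 ± 0.074 and DLGAP5 at -0.46 ± 0.076. CDK1 was at -0.43 ± 0.092 (edgeR adjusted p = 0.000861) and CCNB1 at -0.26 ± 0.063 (edgeR adjusted p = 0.00268). The remaining 5 were CENPE, KIF20B, SMC2, TOP2A and MYBL2, between -0.28 and -0.17. Of these, CENPE and KIF20B lost the call without shNC GNA 1 or shNRF2 GNA 3, MYBL2 without shNC GNA 2 or shNRF2 GNA 2 or 3, and TOP2A without shNRF2 GNA 3 (edgeR adjusted p = 0.059 to 0.093 over the 4 genes). With all libraries, CENPE and KIF20B also lost it with limma on FPKM at either pseudocount and TOP2A with log2(FPKM + 0.1).

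The response to GNA was larger in shNRF2 for 23 of the 58 genes and smaller for none (edgeR's test of the difference of responses, adjusted p under 0.05), where 3.24% of all tested genes had a difference in the lower direction and 3.58% in the higher. The difference is the response in shNRF2 minus the response in shNC, and its median over the 58 genes was -0.35, against 0 over all tested genes. At an unadjusted edgeR p under 0.05, 42 genes had a difference in the lower direction and 0 in the higher. The share of all tested genes at that unadjusted threshold was not counted, so the 42 cannot be set against the 3.24%. DESeq2 called 25 lower and 0 higher, limma on log2(FPKM + 1) called 16 and 0, and limma on log2(FPKM + 0.1) only 8 and 0. With library totals 414 of all tested genes had a higher and 674 a lower difference, against 561 and 507 with TMM, and 27 of the 58 a lower one. It equals, by arithmetic, the gap between the lines with GNA minus the gap in DMSO, so the 2 preceding comparisons are made of the same libraries and add no separate evidence. In 56 of 58 genes the log2 fold change was more negative in shNRF2, the exceptions being INCENP and TTK. Among the 1651 tested genes called lower in both lines, 60.6% were more negative in shNRF2 and 8.12% were called for the difference in the lower direction. Related lists outside the 58 shared the direction. The difference was negative in 25 of 30 DNA replication genes (5 called lower, 0 higher). It was negative in 25 of 31 other kinetochore and centromere genes (4 lower, 0 higher). The same held for 18 of 23 other spindle, motor and cytokinesis genes (3 lower, 1 higher). The 22 other mitotic entry genes were split, with 11 negative and 11 positive. Over the 58 genes the responses in the 2 lines, which share no library, had a Pearson correlation of 0.66 and a Spearman correlation of 0.60.

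Among the 23, the largest differences were in CENPF, at -0.64 ± 0.076 (edgeR adjusted p = 2.33e-06), NCAPG at -0.64 ± 0.15, ASPM at -0.62 ± 0.079 (edgeR adjusted p = 8.38e-06), TOP2A at -0.57 ± 0.067 (edgeR adjusted p = 2.12e-06) and CDK1 at -0.55 ± 0.12. The levels behind them differed. For 16 of the 23, among them CENPF, MKI67, HMMR, KIF11 and ANLN, shNRF2 was higher in DMSO and the lines did not differ beyond the threshold with GNA. For 5, namely CDK1, CCNB1, NCAPG, ASPM and DLGAP5 the lines did not differ beyond the threshold in DMSO, and shNRF2 was lower with GNA. For the other 2, SMC2 and TOP2A, both held: shNRF2 was higher in DMSO and lower with GNA. By subgroup the call was made for 4 of 4 spindle assembly factors, 6 of 7 chromosome structure genes and 6 of 9 kinesins, against 0 of 4 passenger complex genes and 0 of 2 transcription factors. At an unadjusted p under 0.05, 3 of the 4 and 2 of the 2 had a difference in the lower direction by edgeR, and DESeq2 called 0 of the 4 and 1 of the 2, so those subgroups are not shown to differ from the rest. PIF1 had the largest point estimate, -0.89 ± 0.3, and was not called (edgeR adjusted p = 0.0719).

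Many of the 23 calls were near the threshold. CENPF, KIF4A, KIF15, SMC2, TOP2A, MKI67, ASPM and DLGAP5, which make 8, were called under all 21 alternatives, and the other 15 lost the call under at least 1. In the fits without 1 library, CCNB1 kept its call only without shNC DMSO 3, shNC GNA 1 or shNRF2 DMSO 1, and PLK1 only without shNC DMSO 3, shNC GNA 1 or shNRF2 GNA 1. BUB1B kept its call only without shNC DMSO 1, shNC GNA 1 or shNRF2 GNA 3, and KNL1 only without shNC DMSO 1, shNRF2 DMSO 1 or shNRF2 GNA 2. TPX2 kept its call only without shNC DMSO 1 or 3, shNC GNA 1 or shNRF2 GNA 3. For these 5 genes the lost calls had edgeR adjusted p from 0.051 to 0.15. KIF2C lost its call without shNC DMSO 2, shNC GNA 1, shNRF2 DMSO 1 or 3 and shNRF2 GNA 1 or 2, and KIF14 without shNRF2 GNA 1 or 3, shNRF2 DMSO 3, shNC GNA 2 and shNC DMSO 3. KIF23 lost its call without shNC DMSO 3, shNC GNA 2 or 3, shNRF2 DMSO 1 or 2 and shNRF2 GNA 1 or 3, and NCAPG without shNRF2 GNA 3. The lost calls of these 4 had edgeR adjusted p from 0.051 to 0.083. With limma on log2(FPKM + 0.1) all 15 lost the call, and with log2(FPKM + 1) 7 of them did (CDK1, CCNB1, BUB1B, KNL1, NCAPG, TPX2 and HMMR). The replicate block ended the calls of CCNB1, PLK1 and KNL1, and no low-count filter those of CCNB1, PLK1 and TPX2.

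**Figure D4:**
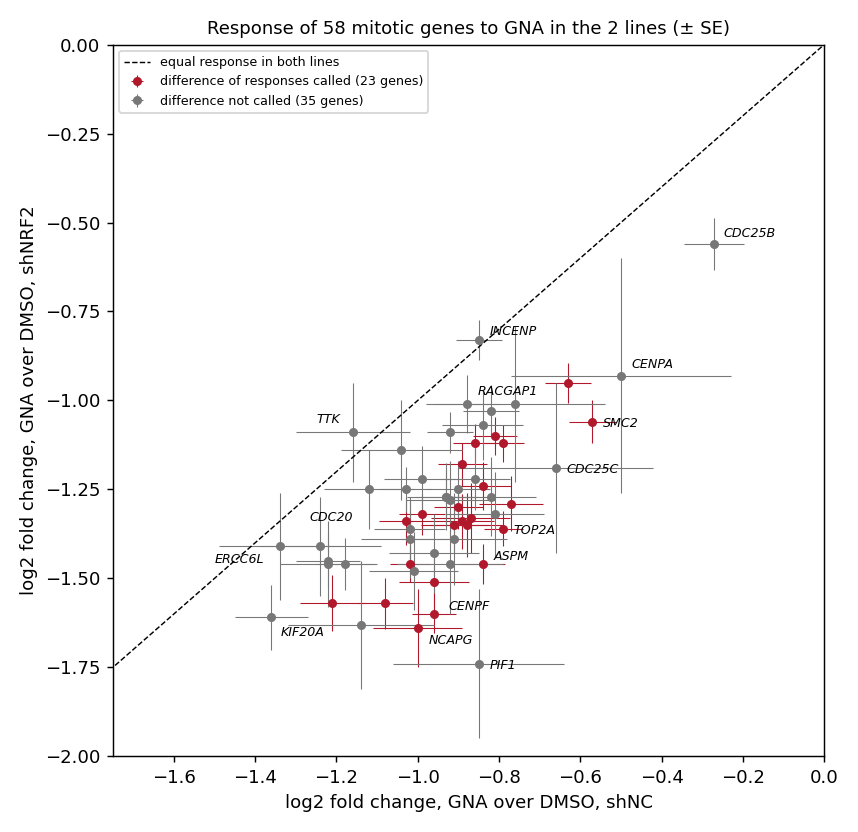
Log2 fold change with GNA in shNC (horizontal axis) and in shNRF2 (vertical axis) for the 58 mitotic genes, each ± SE; the dashed line marks equal responses. Nearly all points lie below the line, the 23 genes with a called difference are red, and INCENP and TTK lie above it.

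Lists of other genes of division and of the cell cycle, which share no gene with the 58, placed these values in context. The 58 genes and these lists were chosen with earlier results of these data known, so the order of their medians is no test. Of 23 other spindle, motor and cytokinesis genes tested, 16 fell and none rose in shNRF2, and 18 fell and none rose in shNC, with medians of -0.93 in shNRF2 and -0.63 in shNC. KIFC1, a minus-end kinesin, fell in each line, with a log2 fold change of -1.47 ± 0.09 in shNRF2 and -1.15 ± 0.091 in shNC. Of 31 other kinetochore and centromere genes tested, 24 fell and 1, CENPT, rose in shNRF2, and 22 fell and none rose in shNC, with medians of -0.76 in shNRF2 and -0.58 in shNC. HJURP, the chaperone that loads CENPA, changed by -1.21 ± 0.052 in shNRF2 and -0.93 ± 0.051 in shNC. Of 30 DNA replication genes, 29 fell and none rose in each line, with medians of -0.93 in shNRF2 and -0.75 in shNC, and the ribonucleotide reductase gene RRM2 changed by -1.36 ± 0.074 in shNRF2 and -1.05 ± 0.072 in shNC. At an unadjusted p under 0.05 the kinetochore list had 1 higher gene in shNC, and the other 2 lists had 0 in either line; DESeq2 called 0 higher in these cases.

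Other lists moved less, and their counts are to be read against all tested genes, of which 17% fell and 16.7% rose in shNRF2 and 16.1% fell and 14.6% rose in shNC. The list of 17 APC/C genes, core subunits together with regulators such as FBXO5, FZR1 and UBE2S, had 5 lower and 3 higher in shNRF2. In shNC it had 7 lower and 1 higher, and its medians were -0.07 in shNRF2 and -0.19 in shNC. Of 22 other mitotic entry genes, which are kinases, phosphatases and others such as CKS2, 14 fell and none rose in each line. Their medians were -0.26 in shNRF2 and -0.29 in shNC. In each line 1 of them was higher at an unadjusted edgeR p under 0.05 and 0 by DESeq2. Of 16 other condensin and cohesin genes 11 fell in each line, with medians of -0.30 in shNRF2 and -0.27 in shNC. Of these 16, 1, the cohesin-release factor WAPL, rose in shNRF2, at 0.37 ± 0.055, and was at 0.13 ± 0.055 in shNC. The 13 tubulin genes were divided, with 7 lower and 4 higher in shNRF2 and 5 lower and 4 higher in shNC. TUBE1, epsilon-tubulin, rose, at 0.67 ± 0.12 in shNRF2 and 1.18 ± 0.12 in shNC, as did TUBB2A, at 0.75 ± 0.12 in shNRF2 and 0.52 ± 0.1 in shNC, whose reads can be shared with the near-identical TUBB2B. Among the 18 genes of the DREAM complex and the E2F family 7 fell and 1 rose in shNRF2, and 5 fell and 1 rose in shNC. Their medians were -0.12 in shNRF2 and -0.1 in shNC. The lowest value was that of E2F8 in shNRF2, at -1.37, and that of E2F1 in shNC, at -0.83. LIN54, the DREAM subunit that contacts the CHR, was the gene that rose, at 0.66 ± 0.11 in shNRF2 and 0.53 ± 0.11 in shNC (edgeR adjusted p = 3.02e-05 and 0.00058), and E2F1 changed by -0.93 ± 0.18 in shNRF2 and -0.83 ± 0.18 in shNC. Of the 3 NF-Y genes 2 fell in each line, NFYB by -0.56 ± 0.079 in shNRF2 and -0.57 ± 0.079 in shNC and NFYA by -0.20 ± 0.069 in shNRF2 and -0.21 ± 0.068 in shNC. Of 5 CDK inhibitor genes tested 3 fell and 1 rose in each line, with a median of -0.41 in shNRF2 and -0.41 in shNC. The lowest value was that of CDKN3, at -1.12 in shNRF2 and -0.69 in shNC. CDKN1A, the inhibitor p21, was the gene that rose, at 0.44 ± 0.053 in shNRF2 and 0.19 ± 0.053 in shNC (edgeR adjusted p = 1.82e-07 and 0.00592).

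**Figure D5:**
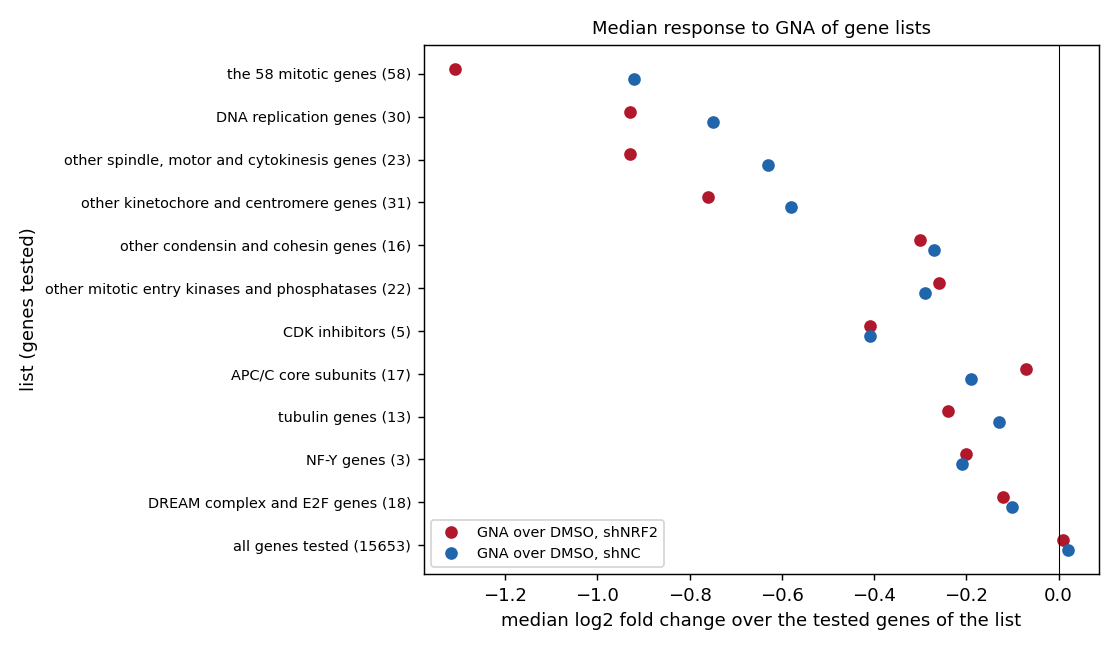
Median log2 fold change with GNA (horizontal axis) over the tested genes of each list (rows, with the number of genes tested) in shNRF2 (red) and shNC (blue). The row labelled APC/C core subunits also holds regulators such as FBXO5, FZR1 and UBE2S. The row labelled other mitotic entry kinases and phosphatases also holds other genes such as CKS2. The 58 mitotic genes have the lowest medians, -1.31 in shNRF2 and -0.92 in shNC, and the median of all tested genes lies at 0.01 in shNRF2 and 0.02 in shNC. The lists were chosen with earlier results of these data known, so their order is no test.

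Counting could affect single genes. Near-identical copies, such as the pseudogene CDC20P1, each held at most 0.598% of the counts of the gene they resemble. In GENCODE 29 on GRCh38, 32 of the 58 genes overlap another annotated gene, and whether counting used strand is not given in the sources used here. Deposited FPKM was checked against the counts, leaving out genes with low mean counts. For 9263 of 9264 genes checked, the count divided by FPKM and library total was constant over the libraries, within a tolerance of 0.001. Gene lengths themselves were not compared. For these genes FPKM is the count rescaled, so it is no second measurement.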

How the data were processed

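Gene expression was measured by RNA sequencing in 12 libraries, 3 per group, assigned by their titles. The authors deposited raw counts per gene and FPKM values, which divide the count by gene length and by the library's total. GRCh38 and DESeq2 are named, per the submitters' processing notes, with no role; of the aligner, counter, annotation and strand use, each is not given in the sources used here. Genes were filtered with filterByExpr (minimum count 10, minimum total 15), leaving 15653 genes with 99.8% of the counts. TMM scaling preceded a quasi-likelihood test in edgeR 4.0.16 (1 mean per group, 8 residual degrees of freedom) in R 4.3.3, on all 15653 genes. The response to GNA was tested in either line, the gap between the lines under either treatment, and then the difference of the 2 responses, 5 comparisons in all. Calls used a Benjamini-Hochberg adjusted p under 0.05. The SE is the log2 fold change over the square root of F, and 95% intervals used 8 degrees of freedom. With 3 libraries against 3, an exact permutation test cannot go under p = 0.1.

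The members, the 11 subgroups, the 10 wider lists and the promoters shown were chosen with earlier results of these data known. The rule for named genes took 11 fixed genes, the steepest and least changed in each subgroup, every gene called for the difference, the 5 largest differences each way between the lines, genes not called with GNA, and at most 3 called genes in either direction from a wider list. The alternatives were DESeq2 size factors, library totals and upper-quartile factors in edgeR, no filter, at least 1 CPM in 3 libraries, DESeq2 1.42.0, limma 3.58.1 on log2(FPKM + 1) and log2(FPKM + 0.1), a replicate block, a fit to only the groups compared, and each library left out. Promoters are RefSeq windows (GRCh38.p14) and gene positions GENCODE 29. The single-cell data named in the labels were not used here.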

Additional observations from a re-analysis of the deposited data

Results flagged for a closer look

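The response to GNA differed between the lines, by edgeR's test of the difference of responses, for 23 of the 58 genes. Of these, 8 held under all 21 alternatives and 15 lost the call under at least 1; limma on log2(FPKM + 0.1) called 8, and CCNB1, PLK1, BUB1B and KNL1 each lost the call in 9 of the 12 fits without 1 library. Each value is the log2 fold change in shNRF2 minus that in shNC, and each was negative, which means a larger fall in shNRF2. Among genes of mitotic entry and the checkpoint the difference was -0.55 for CDK1, -0.29 for CCNB1, -0.36 for PLK1 and -0.31 for BUB1B. At the kinetochore it was -0.64 for CENPF and -0.45 for KNL1. Among the kinesins it was -0.47 for KIF2C, -0.41 for KIF4A, -0.40 for KIF11, -0.44 for KIF14, -0.51 for KIF15 and -0.29 for KIF23. Among chromosome structure genes it was -0.64 for NCAPG, -0.33 for NCAPD2, -0.48 for SMC2, -0.33 for SMC4, -0.57 for TOP2A and -0.44 for MKI67. For spindle factors and anillin it was -0.26 for TPX2, -0.62 for ASPM, -0.45 for HMMR, -0.49 for DLGAP5 and -0.33 for ANLN. Groups of 3 libraries are too small for a test of single outlying libraries.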

How the results depend on the processing

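No call among the 58 genes changed direction under any alternative run. With GNA, 57 to 58 genes fell in shNRF2 and 56 to 57 in shNC over the fits without 1 library. Over the other alternatives, 57 to 58 fell in shNRF2 and 55 to 57 in shNC. Of the calls, 57 of 58 in shNRF2, 55 of 57 in shNC, 23 of 33 between the lines in DMSO, 9 of 13 between the lines with GNA, and 8 of 23 for the difference held under every alternative. In DMSO the 31 higher genes became 25 to 31 without 1 library and 28 to 32 otherwise. The 2 lower genes became 1 with DESeq2, 1 with limma on log2(FPKM + 1), 0 with log2(FPKM + 0.1) and 1 to 2 without 1 library. With GNA the 1 gene higher in shNRF2 became 3 with library totals, 3 with upper-quartile factors, 2 with the 1 CPM filter, 2 with each limma fit and 1 to 2 without 1 library; the 12 lower genes became 10 to 15 without 1 library. The 23 differences became 8 with limma on log2(FPKM + 0.1) and 17 to 23 without 1 library, and the cause was not tested. Over all genes, GNA in shNC gave 3543 higher and 1542 lower with library totals, and 1400 and 1256 lower with limma on log2(FPKM + 1) and log2(FPKM + 0.1). The difference over all genes gave 229 and 139 higher and 304 and 177 lower with those limma fits, against 561 and 507, and without 1 library 381 to 764 higher and 315 to 673 lower. Over all genes without 1 library, GNA in shNRF2 gave 2238 to 2735 higher and 2288 to 2733 lower. The replicate number did not pair the libraries: 0 of 18 same-number pairs correlated above 0.1, and 1 of 12 libraries correlated best with its own number. With the replicate block, 58 and 57 genes fell with GNA in shNRF2 and shNC, 30 were higher and 2 lower in shNRF2 in DMSO, 1 higher and 13 lower with GNA, and 20 differences were called. A fit on only the groups compared could not be made for the difference, which uses all 4. With 3 libraries per group, low genes such as CENPA, CDC25C and PIF1 carry wide errors.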
